A study of Homo sapiens with 24 samples.

Results

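The genes described here are 10 genes of ferritin storage and cellular iron handling, chosen by name from the list FTL, FTH1, NCOA4, TFRC, SLC11A2, SLC11A1, SLC40A1, HMOX1, ACO1 and IREB2. Of these 10 genes, 8 were measured through a probe set that the platform annotation pairs with a single symbol, out of 18417 genes measured in that way. FTH1, the ferritin heavy chain, and IREB2, the iron regulatory protein IRP2, were not analysed here. Expression was measured on 24 Affymetrix Human Gene ST arrays of THP-1, a cell line from a monocytic leukaemia. The cells carried a lentiviral pSLIK cassette, selected with G418, in which a tetracycline-inducible promoter drives NOD1 or NLRP4 with a 3X FLAG tag, or they carried that vector with no insert. NOD1 recognises fragments of bacterial cell walls in the cytosol, and NLRP4 is a related receptor of the NLR family. The 6 groups of 4 arrays each were the vector line, the NLRP4 line and the NOD1 line, each kept uninduced or given doxycycline (DOX) at 1 µg/ml for 6 h after seeding at 50000 cells per well. Each line was a G418-selected population made at a low rate of infection, and the labels do not tell whether the 4 wells per group were separate cultures or whether a line was made more than once. The p-values therefore reflect well-to-well spread that may be technical. The wells followed an order set in advance without randomization, and the arrays are numbered in blocks by line and by DOX, so place in that order cannot be told apart from line or DOX.

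Iron enters most cells on transferrin through the transferrin receptor TFRC and leaves the endosome through the divalent metal transporter SLC11A2. Iron that is not used is stored in ferritin, a shell of light (FTL) and heavy (FTH1) chains, and is released when NCOA4 delivers ferritin to the lysosome. In monocytes and macrophages, which recycle iron from red cells, HMOX1 breaks down haem, SLC11A1 moves metal out of the phagosome and SLC40A1 (ferroportin) exports iron. When iron is scarce, the iron regulatory proteins ACO1 and IREB2 bind iron-responsive elements (IREs), hairpins in messenger RNAs, which blocks translation of ferritin and ferroportin and protects the TFRC message from decay. The ferritin and HMOX1 genes are also known targets of the antioxidant factor NRF2 and of BACH1, which represses the same genes. Arrays measure RNA, so protein levels, translation and iron itself were not measured.

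The IRE of FTL is shown because it is the element through which the regulatory proteins act on FTL, the gene that among the 8 measured members had the largest line difference. It is from RefSeq (GRCh38.p14), chr19:48965329-48965358, plus strand, bases 21 to 50 of the transcribed sequence, in the 5′ untranslated region of FTL, with the 6-base loop in capitals. The stretch stops at base 50, where the sequence window used here ends, so any bases of the element past that point are not shown.
FTL IRE: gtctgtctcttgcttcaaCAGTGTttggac
It was found by a search of the transcribed strand for an unpaired C, a stem arm of 5 bases, the loop letters CAGTGN and a second arm of 5 bases able to pair with the first (G with U allowed). A match lay wholly within the first 50 transcribed bases of 8 of 35116 RefSeq promoter windows (0.0228%). Each window ran from 250 bases before a start site to 50 bases after it, so elements farther into a transcript were not searched. The 8 windows were those of FTL, ALAS2, CCDC116, CEP43, CTBP1, F10, LOC105376212 and PGLYRP2. Of the 10 genes, 8 had a window in this table, and FTH1 and HMOX1 had none.

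The 250 bases before the start sites of FTL and TFRC are shown because these are the members whose signal differed between lines in all 4 comparisons of the NOD1 line with another line. Capitals mark the letters ACGTG on either strand, a form of the core of the hypoxia response element, and other forms were not searched. In FTL the match is on the minus strand and starts at position −11, and in TFRC it is on the plus strand at −88. The FTL stretch is chr19:48965059-48965308 on the plus strand and the TFRC stretch is chr3:196082091-196082340 on the minus strand, each printed 5′ to 3′ in the direction of the gene.
FTL promoter: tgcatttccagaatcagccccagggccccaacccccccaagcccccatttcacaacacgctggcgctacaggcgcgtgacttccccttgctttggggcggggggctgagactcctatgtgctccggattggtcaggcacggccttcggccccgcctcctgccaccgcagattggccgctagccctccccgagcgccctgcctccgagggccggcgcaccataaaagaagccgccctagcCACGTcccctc
TFRC promoter: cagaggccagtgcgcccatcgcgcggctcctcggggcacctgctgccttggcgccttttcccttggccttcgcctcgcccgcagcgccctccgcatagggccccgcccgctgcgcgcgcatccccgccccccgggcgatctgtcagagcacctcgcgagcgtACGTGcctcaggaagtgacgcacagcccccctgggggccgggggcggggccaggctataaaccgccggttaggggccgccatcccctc
These letters occur on either strand in 21.4% of the 35116 windows, and among the 8 members with a window FTL and TFRC were the only ones with them. The antioxidant response core TGACNNNGC, searched on both strands, occurred in 13.3% of windows and in 1 window of NCOA4, where it started at position 24 after the start site. A match is a string of letters and not a measured binding site, and a window without a match says nothing of sequence outside that window.

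Array facts come first. NOD1 signal rose with DOX in the NOD1 line from 8.74 to 12.75 (log2 group means, n = 4) and NLRP4 signal rose in the NLRP4 line from 8.09 to 11.93. In the lines built to carry them and without DOX, both already exceeded the vector line, NOD1 1.32-fold (log2 0.40, limma adjusted p = 0.0299) and NLRP4 2.25-fold (1.17, adjusted p = 0.0405), so uninduced here means without DOX. These calls were lost in 6 and 15 of 31 alternatives, with log2 ranges of 0.346 to 0.505 and 0.995 to 1.31. Within groups the arrays correlated with each other across genes at 0.982 to 0.993, no 2 arrays were identical, and the deposited array medians ran from 8.06 to 8.85. Values below are log2 signals after quantile normalization between arrays, and comparisons are limma fits over all 24 arrays, in which a gene was called where its p, adjusted by Benjamini-Hochberg across the 18417 genes, was under 0.05. Each value belongs to its own probe set, so levels are compared between groups and never between genes. For the THP-1 label, the 8 measured of 10 myeloid markers had group means of 13.35 to 13.85 for LYZ, 11.43 to 12.68 for CD68, 9.64 to 10.34 for ITGB2, 9.36 to 10.33 for SPI1, 8.91 to 9.62 for CSF1R, 7.93 to 8.24 for ITGAM, 7.87 to 8.09 for MPO and 7.71 to 8.01 for CD14. Their mean was 9.54 to 9.67 in the vector and NLRP4 groups and 10.14 and 10.10 in the NOD1 line without and with DOX. The mean of epithelial and stromal markers (10 of 10 measured) was 8.83 to 8.95 in the vector and NLRP4 groups and 8.66 and 8.65 in the NOD1 line. EPCAM alone spanned group means of 6.94 to 9.23, and the next widest, KRT8, 8.23 to 8.67. The means of erythroid (5 of 9 measured, 8.49 to 8.57) and lymphoid (7 of 8, 7.78 to 7.88) markers spanned narrow ranges over the 6 groups. No background level was estimated here, so no marker can be called present or absent. The part that these marker shifts of the NOD1 line have in any line difference below was not tested. A change in RNA per cell and a change in the make-up of a line cannot be told apart in these bulk samples.

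Among the storage genes, FTL (chr19:48965309-48966879, GRCh38.p14) had the widest spread of group means of the measured members, 1.28 in log2 signal. Its 4 arrays in the vector line without DOX read 11.80, 11.90, 11.96 and 11.98 (mean 11.91 ± 0.0822 SD), and with DOX 11.69, 11.71, 11.81 and 11.84 (11.76 ± 0.0747). In the NLRP4 line they read 11.60, 11.61, 11.67 and 11.68 uninduced (11.64 ± 0.0408) and 11.50, 11.55, 11.57 and 11.65 with DOX (11.57 ± 0.0619). In the NOD1 line they read 12.49, 12.53, 12.71 and 12.89 uninduced (12.65 ± 0.183) and 12.71, 12.78, 12.93 and 12.97 with DOX (12.85 ± 0.122). All 8 arrays of the NOD1 line lay above all 16 arrays of the other lines. From highest to lowest the group means ran NOD1 line with DOX, NOD1 line, vector line, vector line with DOX, NLRP4 line and NLRP4 line with DOX. Neighbours in this order overlapped except between the uninduced NOD1 and vector lines and between the DOX-treated vector line and the uninduced NLRP4 line.

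**Figure D1:**
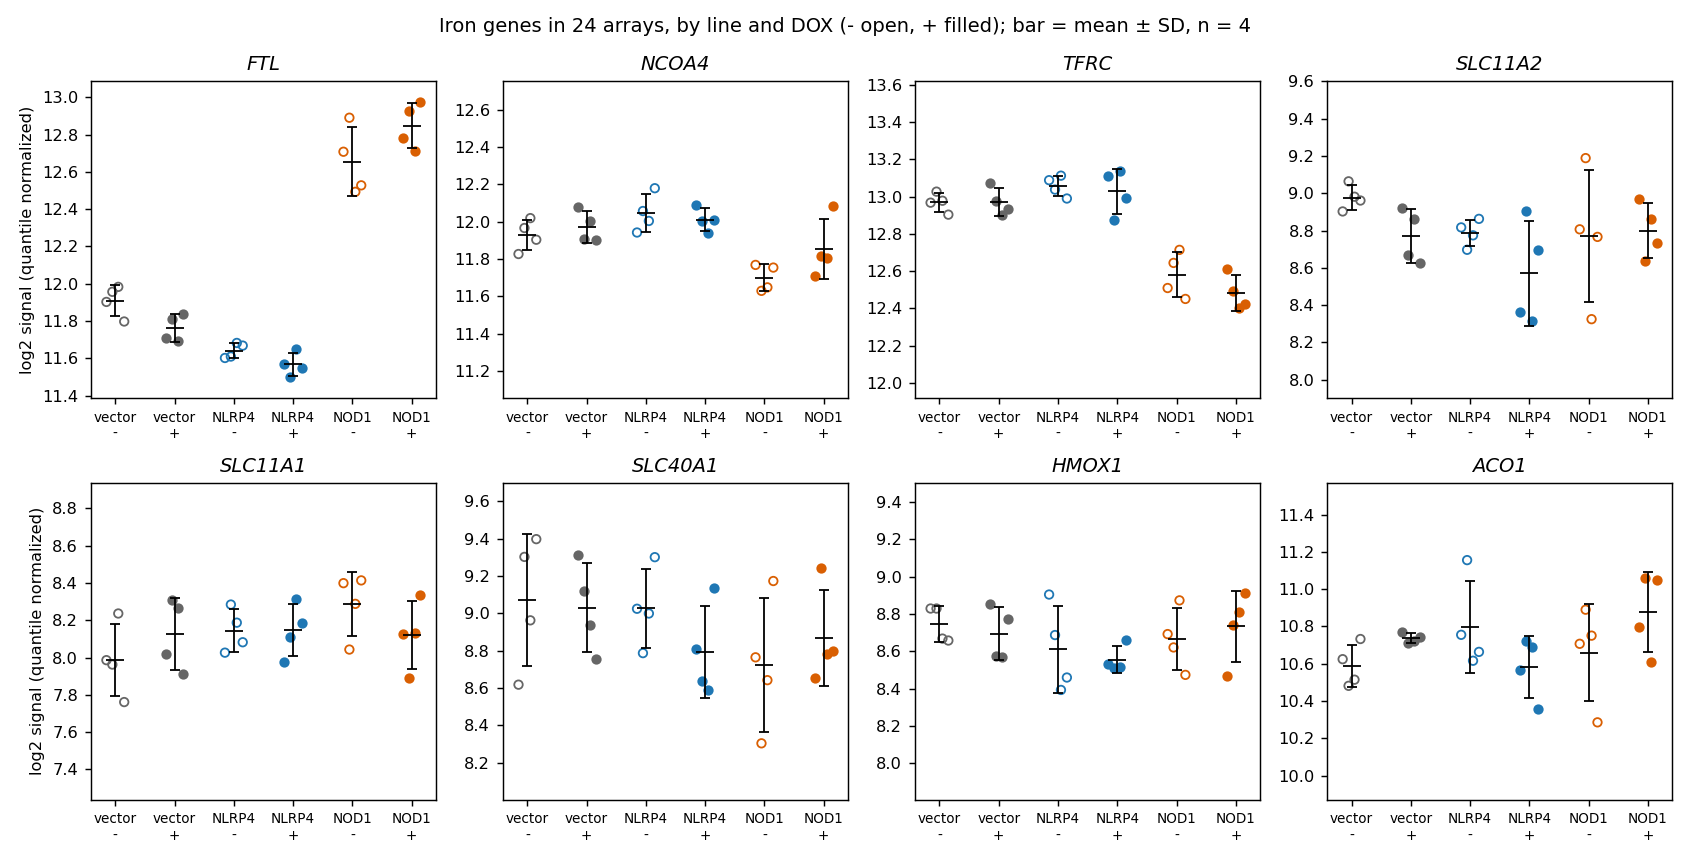
Log2 signal after quantile normalization (vertical axis) of the 8 measured iron genes in the 6 groups (horizontal axis; minus, no DOX, open; plus, DOX, filled), 1 point per array, with bars for mean ± SD (n = 4). FTL stands apart in the NOD1 line, with group means of 12.65 and 12.85 against 11.57 to 11.91 elsewhere, and TFRC lies lower there, at 12.58 and 12.48 against 12.97 to 13.06.

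Without DOX, FTL was 1.68-fold higher in the NOD1 line than in the vector line (log2 difference 0.74, SE 0.0829, limma adjusted p = 4.73e-07) and 2.02-fold higher than in the NLRP4 line (1.01, adjusted p = 5.47e-09). With DOX in both lines, the FTL difference was 2.12-fold against the vector line (1.08, adjusted p = 2.47e-09) and 2.43-fold against the NLRP4 line (1.28, adjusted p = 2.11e-10). The comparisons with the vector and NLRP4 lines use the same NOD1-line arrays. In the NLRP4 line, FTL read below the vector line in all 4 arrays both without DOX (−0.27, adjusted p = 0.758) and with DOX (−0.19, adjusted p = 0.771), and neither difference was called. FTL has processed pseudogenes, so signal from near-identical copies may be part of these values. The annotated heavy chain pseudogene probe sets do not stand in for FTH1. Of them, FTH1P3 was not called in any comparison, and FTH1P5 was called in the DOX-treated NOD1 line, 1.32-fold above the vector line (adjusted p = 0.0382) and 1.58-fold above the NLRP4 line (adjusted p = 0.00103).

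NCOA4 (chr10:46005088-46030623), the receptor that carries ferritin to lysosomes, was lower in the uninduced NOD1 line. There its arrays read 11.63, 11.65, 11.75 and 11.77 (mean 11.70 ± 0.0714 SD), against 11.83, 11.90, 11.97 and 12.02 in the uninduced vector line (11.93 ± 0.0830) and 11.94, 12.00, 12.06 and 12.18 in the uninduced NLRP4 line (12.05 ± 0.101). The uninduced NOD1 arrays lay below both other sets with no overlap. The difference was 1.17-fold against the vector line (log2 −0.23, SE 0.0800, adjusted p = 0.0375) and 1.27-fold against the NLRP4 line (−0.35, adjusted p = 0.00184). The first of these calls was lost without replicate 2, 3 or 4 of the uninduced vector line or replicate 2 or 3 of the uninduced NOD1 line (−0.24 to −0.20, adjusted p 0.0595 to 0.112) and without the 4 dimmest arrays, those with the lowest deposited medians (−0.19, adjusted p = 0.110). It was also lost on the deposited scale (−0.27, adjusted p = 0.0966), after centring arrays on their medians (−0.40, adjusted p = 0.0818) and with only the compared groups in the fit (−0.23, adjusted p = 0.106). The 4 dimmest arrays included replicate 2 of both the uninduced vector line and the uninduced NOD1 line. The others were replicate 1 of the uninduced NLRP4 line and replicate 4 of the DOX-treated NOD1 line. With DOX the NOD1-line arrays of NCOA4 read 11.71, 11.81, 11.82 and 12.08 (11.85 ± 0.160) and overlapped those of the vector line (11.97 ± 0.0867) and the NLRP4 line (12.01 ± 0.0611). The DOX-treated differences of NCOA4 were −0.12 (adjusted p = 0.317) and −0.16 (adjusted p = 0.166). Without replicate 4 of the DOX-treated NOD1 line, the array at 12.08, the second of these was called (−0.23, adjusted p = 0.0319). It was also called without the 4 dimmest arrays, which include that same array.

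Among the uptake genes, TFRC (chr3:196049284-196082090) was lower in the NOD1 line. Its arrays read 12.90, 12.97, 12.98 and 13.03 in the uninduced vector line (mean 12.97 ± 0.0507 SD) and 12.90, 12.93, 12.98 and 13.08 with DOX (12.97 ± 0.0762). They read 12.99, 13.04, 13.09 and 13.11 in the uninduced NLRP4 line (13.06 ± 0.0545) and 12.87, 12.99, 13.11 and 13.14 with DOX (13.03 ± 0.120). In the NOD1 line they read 12.45, 12.51, 12.64 and 12.71 uninduced (12.58 ± 0.121) and 12.40, 12.42, 12.49 and 12.61 with DOX (12.48 ± 0.0947). All 8 arrays of the NOD1 line lay below all 16 others, and in the order of group means every other pair of neighbours overlapped. Against the vector line TFRC was 1.31-fold lower without DOX (log2 −0.39, SE 0.0761, adjusted p = 0.000423) and 1.40-fold lower with DOX (−0.49, adjusted p = 3.19e-05). Against the NLRP4 line it was 1.39-fold lower without DOX (−0.48, adjusted p = 3.70e-05) and 1.46-fold lower with DOX (−0.54, adjusted p = 8.70e-06). With arrays centred on their medians in place of quantile normalization, the DOX-treated calls were lost, at −0.43 against the vector line (adjusted p = 0.0573) and −0.26 against the NLRP4 line (adjusted p = 0.243).

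**Figure D2:**
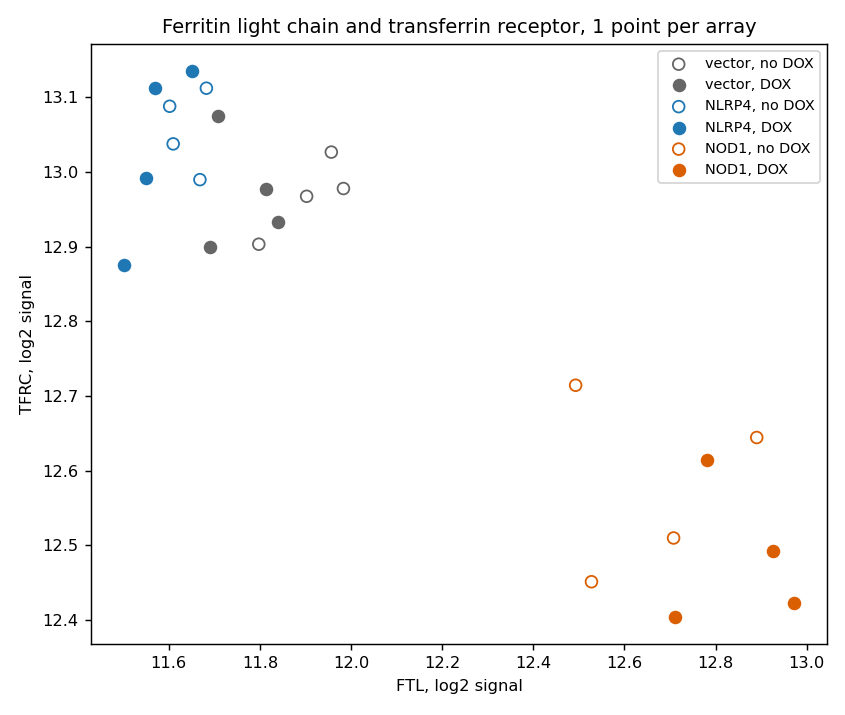
Log2 signal of FTL (horizontal axis) against TFRC (vertical axis), 1 point per array, coloured by line and filled with DOX. The 8 NOD1-line arrays form a set of their own with FTL from 12.49 to 12.97 and TFRC from 12.40 to 12.71, apart from the 16 other arrays.

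FTL was higher and TFRC lower in the NOD1 line, and their arrays formed separate sets by line. Within groups, after removing each group's mean, the correlation of FTL and TFRC over the 24 arrays was 0.17. The genes whose signal most resembled that of FTL over the 24 arrays, by Pearson correlation among all genes tested, were SNRNP25, PTDSS1 and STIP1 (0.98, 0.98 and 0.97). For TFRC they were HELLS, IPO5 and DENND4C (0.96, 0.95 and 0.95). These arrays share 3 lines, so any gene with a large difference in the NOD1 line can score this way. HMOX1 had no neighbour of that kind, and its 3 best were ZNF418, KCNC1 and ZNF702P (0.71, 0.70 and 0.70).

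SLC11A2 (chr12:50952263-51028886), the other uptake gene, was not called in any comparison. Its uninduced group means were 8.98 (vector), 8.79 (NLRP4) and 8.77 (NOD1). With DOX they were 8.77, 8.57 and 8.80 in the same order. The uninduced NLRP4 arrays (8.70, 8.77, 8.82 and 8.86) all lay below the uninduced vector arrays (8.90, 8.96, 8.98 and 9.06), with a difference of −0.19 that was not called (adjusted p = 1.00). The uninduced NOD1 arrays spread from 8.33 to 9.19, beyond both of these ranges on each side.

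Among the export genes, ferroportin SLC40A1 (chr2:189560590-189580786) varied widely between wells of a group, with SDs from 0.211 to 0.359. Its arrays read 8.62, 8.96, 9.30 and 9.40 in the uninduced vector line (mean 9.07) and 8.30, 8.64, 8.76 and 9.17 in the uninduced NOD1 line (8.72), and these overlapped. The difference of −0.35 (SE 0.183, 95% interval −0.73 to 0.03) was not called (adjusted p = 0.185), but was without replicate 1 of the uninduced vector line (−0.50, adjusted p = 0.0484). It was −0.21 without replicate 2 of the uninduced NOD1 line (adjusted p = 0.505) and −0.13 without the 4 dimmest arrays (adjusted p = 0.750). The other group means of SLC40A1 were 9.03 both in the DOX-treated vector line and for NLRP4 without DOX, 8.79 in the DOX-treated NLRP4 line and 8.87 in the DOX-treated NOD1 line.

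SLC11A1 (chr2:218382273-218396894), the phagosomal metal transporter of macrophages, read 7.76, 7.96, 7.99 and 8.24 in the uninduced vector line (mean 7.99) and 8.04, 8.29, 8.40 and 8.41 in the uninduced NOD1 line (8.29). These ranges overlapped, and the difference of 0.30 (SE 0.117) missed the threshold (adjusted p = 0.0642). It passed without replicate 3 of the uninduced vector line (0.38, adjusted p = 0.0237), without replicate 2 of the uninduced NOD1 line (0.38, adjusted p = 0.0262) and without the 4 dimmest arrays (0.37, adjusted p = 0.0462). The 4 remaining group means of SLC11A1 lay between 8.12 and 8.15, and with DOX the NOD1 and vector lines differed by −0.00 (95% interval −0.24 to 0.24).

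HMOX1 (chr22:35381096-35394207), the inducible haem oxygenase that frees iron from haem, had the narrowest spread of group means, 0.19. In the uninduced vector line its arrays read 8.66, 8.67, 8.83 and 8.83, and in the uninduced NOD1 line 8.47, 8.62, 8.69 and 8.87. With DOX the arrays of the NOD1 line read 8.47, 8.74, 8.81 and 8.92 and those of the vector line 8.57, 8.58, 8.78 and 8.85. All pairs of groups compared overlapped, with differences from −0.14 to 0.18. The HMOX1 difference of the uninduced NOD1 and vector lines was −0.08, with a 95% interval of −0.31 to 0.15 (adjusted p = 0.677). With DOX it was 0.04 (−0.19 to 0.27, adjusted p = 0.852).

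ACO1 (chr9:32384643-32454769), the cytosolic aconitase that acts as iron regulatory protein IRP1 when it lacks its iron-sulfur cluster, was not called in any comparison. Its arrays in the DOX-treated NOD1 line read 10.61, 10.79, 11.05 and 11.06 (mean 10.88 ± 0.216 SD) and in the DOX-treated NLRP4 line 10.36, 10.57, 10.69 and 10.72 (10.58 ± 0.166), with overlap. The difference was 0.29 (SE 0.128, adjusted p = 0.101), and was called without replicate 3 of the DOX-treated NOD1 line (0.38, adjusted p = 0.0397) and when arrays were centred on medians (0.43, adjusted p = 0.0391). The 4 other group means of ACO1 were 10.59, 10.66, 10.74 and 10.80.

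In counts, 3 of the 8 measured members were called between the uninduced NOD1 and vector lines, FTL higher and TFRC and NCOA4 lower, where 24.9% of all genes were called. The median difference of the 8 was −0.14, against 0.03 over all genes. The same 3 genes were called between the uninduced NOD1 and NLRP4 lines, with 27.0% of all genes called. With DOX, FTL and TFRC were called against the vector line (2 of 8, with 25.8% of all genes called) and against the NLRP4 line (2 of 8, with 25.4%). The shares with DOX are near those of all genes. Without DOX, the call of NCOA4 against the vector line was lost in 9 of 33 alternatives. With 8 members, none of these counts was tested against the share of all genes. Between the NLRP4 and vector lines no member was called without DOX (3 genes in all, 0.0163%) or with DOX (7 genes, 0.0380%). FTL was the 1 of 8 members with an unadjusted limma p under 0.05 in each (0.00348 and 0.0275). Of all genes, 4.96% without DOX and 6.11% with DOX had such a p.

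**Figure D3:**
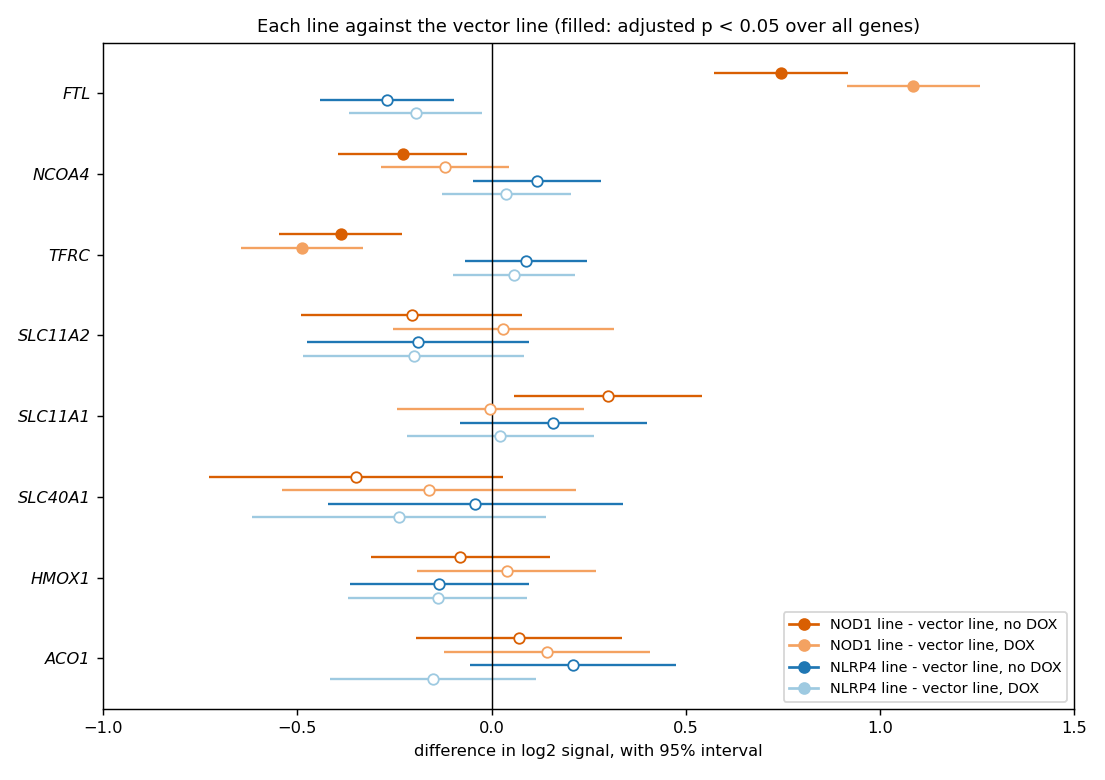
Difference in log2 signal of each measured member between the NOD1 or NLRP4 line and the vector line, without and with DOX (horizontal axis), with 95% intervals from limma; filled points have an adjusted p under 0.05 over all genes. FTL lies at 0.74 and 1.08 and TFRC at −0.39 and −0.49 for the NOD1 line, and no point of the NLRP4 line is filled.

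Comparing DOX with no DOX within a line covers 6 h of DOX and, outside the vector line, induction of the introduced gene with it. No member was called with DOX in the vector line (0 of 8, with 0% of all genes called, and 3.38% of genes and no member at an unadjusted p under 0.05). None was called in the NLRP4 line (0.0163% of all genes called), the NOD1 line (0.0109%) or averaged over the lines (0.0271%). FTL was 0.19 higher with DOX in the NOD1 line (95% interval 0.02 to 0.36, unadjusted p = 0.0287, adjusted p = 0.809), and its uninduced and DOX arrays overlapped. An unadjusted p under 0.05 in that comparison was reached by 1 of 8 members and by 5.77% of all genes. The DOX difference of FTL was −0.15 in the vector line (interval −0.32 to 0.02, adjusted p = 0.999) and −0.07 in the NLRP4 line (adjusted p = 0.853). TFRC differed with DOX by −0.10 in the NOD1 line (interval −0.25 to 0.06, adjusted p = 0.945), NCOA4 by 0.15 (−0.01 to 0.32, adjusted p = 0.872) and HMOX1 by 0.07 (−0.16 to 0.30, adjusted p = 0.987). SLC11A2 differed by −0.21 in the vector line, −0.22 in the NLRP4 line and 0.03 in the NOD1 line.

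**Figure D4:**
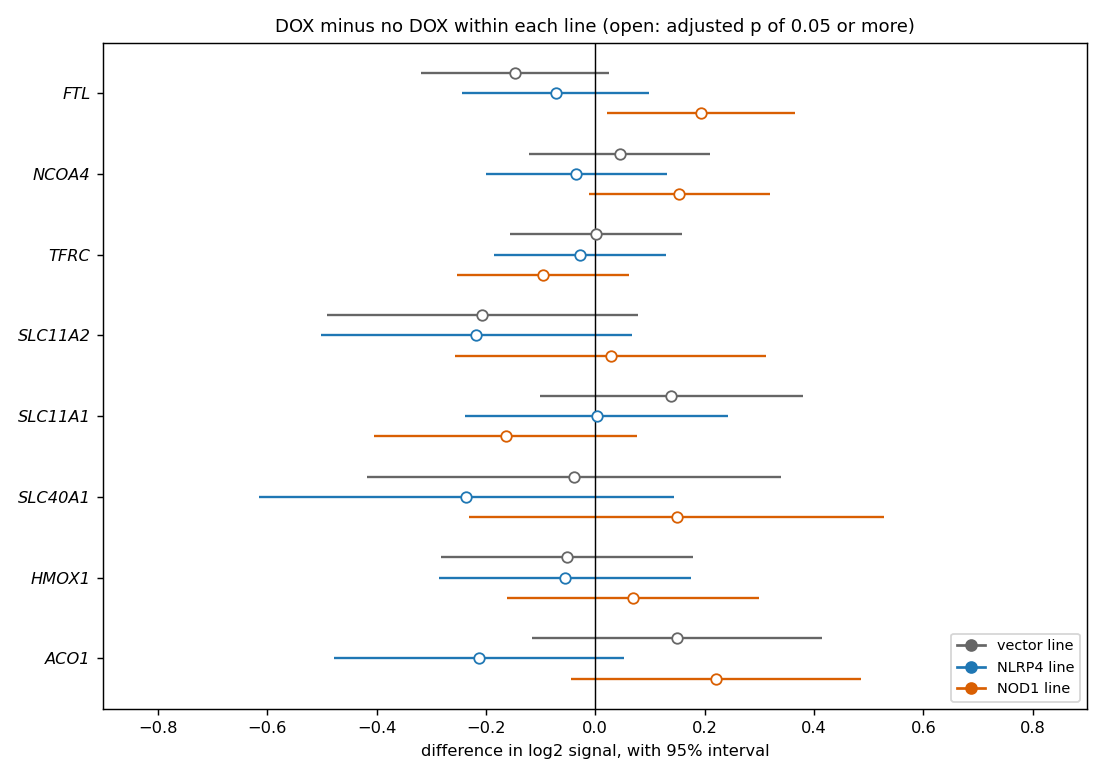
Difference in log2 signal between DOX-treated and uninduced wells of each line (horizontal axis) for the 8 measured members, with 95% intervals from limma; open points have an adjusted p of 0.05 or more. All points are open, and FTL in the NOD1 line, at 0.19, has an interval from 0.02 to 0.36.

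The DOX effects were then compared between lines. That of FTL in the NOD1 line exceeded that in the vector line by 0.34 (SE 0.117, unadjusted p = 0.00796, adjusted p = 1.00) and that in the NLRP4 line by 0.27 (adjusted p = 0.601). That of ACO1 in the NOD1 line exceeded that in the NLRP4 line by 0.43 (unadjusted p = 0.0254, adjusted p = 0.583). For the NOD1 minus vector effect, 1 of 8 members and 4.05% of all genes had an unadjusted p under 0.05. For the NOD1 minus NLRP4 effect, 2 of 8 and 8.01% did. No member was called for the NOD1 minus vector effect (0.00543% of all genes called), the NLRP4 minus vector effect (0.00543%) or the NOD1 minus NLRP4 effect (0.0109%).

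Other genes of iron metabolism were taken from lists by function and compared between the NOD1 and vector lines. For these lists, rose and fell mean higher and lower in the NOD1 line than in the vector line, not a change over time. The lists were chosen with earlier results of these data known, so their shares are described beside those of all genes and were not tested against them. Over all genes, 13% were called higher and 11.9% lower without DOX (24.9% in all, median 0.03), and 13.6% and 12.2% with DOX (25.8%, median 0.02). Of 22 genes of iron uptake, export and systemic control, all measured, 1 rose and 1 fell without DOX, a share below the 24.9% of all genes, with a list median of 0.04 against 0.03 for all genes. The metal importer SLC39A8 fell 1.69-fold (log2 −0.76, adjusted p = 4.10e-06). HFE, a regulator of hepcidin, rose by 0.44 (adjusted p = 0.00372), with a low signal of 6.07 in the vector line. That call of HFE was lost in the values as deposited and with arrays centred. With DOX, 3 fell and 1 rose. SLC39A8 fell again (−0.57, adjusted p = 0.000128), as did the ferroxidase gene CP (−0.61, adjusted p = 0.00253), which was dim at 5.94 and 6.55. The other genes counted with DOX were CYBRD1, a ferric reductase (−0.55, adjusted p = 0.00488), and HJV, a hepcidin co-receptor (0.21, adjusted p = 0.0491, overlapping groups), both named after their values were seen. HJV lost its call when any 1 of 19 of the 24 arrays was left out (0.06 to 0.27 over all alternatives), while CYBRD1 and CP kept theirs under all 31 alternatives.

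Of 16 genes of cytosolic iron chaperones, sensing and ferritin turnover, 4 rose and 4 fell without DOX, against 13% and 11.9% of all genes, with a median of −0.02 (all genes 0.03). The iron chaperones that load ferritin rose, PCBP2 by 0.72 (1.65-fold, adjusted p = 4.40e-05) and PCBP1 by 0.54 (1.46-fold, adjusted p = 0.000289). TAX1BP1, an autophagy receptor in ferritin turnover, fell 1.58-fold (−0.66, adjusted p = 7.28e-05), and the hypoxia factor HIF1A fell 1.41-fold (−0.49, adjusted p = 0.000995). The remaining 4 genes, named after their values were seen, were CUL1 (−0.33, adjusted p = 0.00210) and BACH1 (−0.32, adjusted p = 0.0290), which fell, and KEAP1 (0.35, adjusted p = 0.0251) and EPAS1 (0.37, adjusted p = 0.0281), which rose. BACH1 was not called without replicate 2, 3 or 4 of the uninduced vector line or replicate 2 of the uninduced NOD1 line (−0.40 to −0.24 over all alternatives), nor KEAP1 without replicate 2 or 3 of the former or 2 or 4 of the latter (0.23 to 0.50). Both calls were also lost without the 4 dimmest arrays, and that of BACH1 in the values as deposited. Without replicate 4 of the uninduced NOD1 line, 2 genes of this list rose and 4 fell. With DOX the count was again 4 and 4, with PCBP1 at 0.58 (adjusted p = 0.000120), TAX1BP1 at −0.79 (adjusted p = 7.38e-06) and, named after their values were seen, PCBP2, EPAS1 and KEAP1 higher and HIF1A, BACH1 and NFE2L2 lower. NFE2L2, which encodes NRF2, stood at −0.16 without DOX (adjusted p = 0.291) and at −0.51 with DOX (adjusted p = 0.000640). With DOX, KEAP1 was not called without replicate 1, 2 or 3 of the vector line or 1, 3 or 4 of the NOD1 line, in the values as deposited or without the 4 dimmest arrays (0.27 to 0.43 over all alternatives). The DOX count was 2 higher and 5 lower without replicate 1 of the DOX-treated NOD1 line, and 2 and 4 without its replicate 4.

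Of 24 genes of haem synthesis, transport and breakdown, 22 were measured, and without DOX 5 rose and 1 fell, a total near the 24.9% of all genes called, with a median of 0.05 (all genes 0.03). ALAS1, the rate-limiting enzyme of haem synthesis outside red cells, was 2.02-fold higher in the NOD1 line (log2 1.01, adjusted p = 6.38e-07). It read 11.63 ± 0.255 there and 10.61 ± 0.0559 in the vector line (SD, n = 4). BLVRA, which reduces the biliverdin made by haem oxygenases, rose 1.51-fold (adjusted p = 0.000414), UROD, another synthesis enzyme, 1.46-fold (adjusted p = 0.00103) and the haem transporter SLC48A1 1.25-fold (adjusted p = 0.00357). The other called genes, named after their values were seen, were HMOX2, the constitutive haem oxygenase (0.50, adjusted p = 0.0176), and the mitochondrial transporter ABCB10 (−0.42, adjusted p = 0.0104). HMOX2 was not called without replicate 2 of the uninduced vector line, replicate 1 or 2 of the uninduced NOD1 line or the 4 dimmest arrays (0.35 to 0.63 over all alternatives). ABCB10 was not called without replicate 2 of the uninduced NOD1 line. Without replicate 3 of the uninduced NOD1 line 2 fell. With arrays centred on their medians 3 rose, BLVRA and HMOX2 no longer among them. With DOX 4 rose and 1 fell, ALAS1 by 1.06 (2.08-fold, adjusted p = 3.40e-07) and BLVRA by 0.64 (adjusted p = 0.000185). UROD (0.58), HMOX2 (0.75) and ABCB10 (−0.63), named after their values were seen, were the others.

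Of 32 genes of mitochondrial iron and iron-sulfur cluster assembly, 26 were measured, and 9 rose and none fell without DOX, against 13% and 11.9% of all genes, with a median of 0.06 (all genes 0.03). CIAO2B, which helps insert clusters into cytosolic and nuclear proteins, rose 1.95-fold (log2 0.96, adjusted p = 2.81e-06). The scaffold ISCU rose by 0.41 (adjusted p = 0.00322), the glutaredoxin GLRX5 by 0.37 (adjusted p = 0.00196) and the ferredoxin FDX1 by 0.35 (adjusted p = 0.00290). With arrays centred on their medians 4 rose and ISCU, GLRX5 and FDX1 were not called, and without replicate 1 of the uninduced vector line 8 rose and 2 fell. With DOX 7 rose and none fell, CIAO2B by 0.76 (adjusted p = 5.12e-05) and ISCU by 0.52 (adjusted p = 0.000305), and with arrays centred 4 rose.

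**Figure D5:**
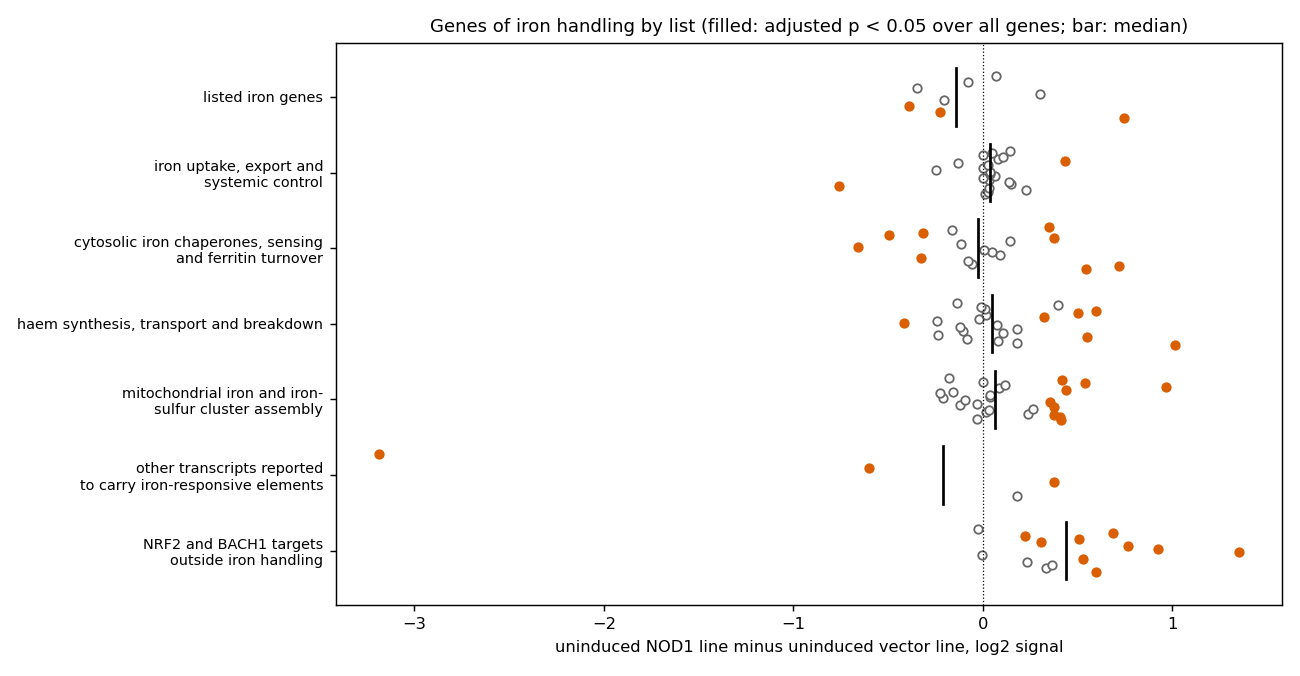
Difference in log2 signal between the uninduced NOD1 and vector lines (horizontal axis), 1 point per measured gene, by list; filled points have an adjusted p under 0.05 over all genes and bars mark list medians. The median of the NRF2 and BACH1 targets, 0.44, is the farthest above 0, and the point at −3.19 is CDC42BPA. The lists were chosen with earlier results of these data known.

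Of 5 other transcripts reported to carry IREs, 4 were measured, and without DOX 2 fell and 1 rose, with 24.9% of all genes called, and the median was −0.21 (all genes 0.03). CDC42BPA, a kinase acting downstream of CDC42, was 9.11-fold lower, at 7.56 ± 0.378 in the NOD1 line against 10.75 ± 0.151 in the vector line (SD, n = 4). The log2 difference was −3.19 (95% interval −3.46 to −2.91, limma adjusted p = 5.96e-14). No background was estimated here, so this fold may be understated. The phosphatase CDC14A fell 1.52-fold (−0.60, adjusted p = 0.000865). EPAS1, which encodes the hypoxia factor HIF-2α and is also on the list of sensing genes, rose by 0.37 (adjusted p = 0.0281). That call was lost without replicate 1 or 4 of the uninduced vector line or replicate 3 or 4 of the uninduced NOD1 line, within a range of 0.28 to 0.54 over all alternatives. ALAS2, the erythroid haem synthesis enzyme, differed by 0.18 and was not called (adjusted p = 0.160). With DOX the same 3 genes were called, CDC42BPA at −3.19 (adjusted p = 3.81e-14), CDC14A at −0.67 (adjusted p = 0.000271) and EPAS1 at 0.41 (adjusted p = 0.0157). This EPAS1 call was lost without replicate 1 or 4 of the DOX-treated NOD1 line and in the values as deposited.

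Of 15 targets of NRF2 and BACH1 outside iron handling, 14 were measured, and 9 rose and none fell without DOX, against 13% and 11.9% of all genes, with a median of 0.44 against 0.03 for all genes. They included enzymes that make or use NADPH and a cystine carrier. PGD, of the pentose phosphate pathway, rose 1.90-fold (log2 0.92, adjusted p = 1.06e-07), TALDO1 of the same pathway 1.70-fold (adjusted p = 9.50e-07), the glutathione reductase GSR 1.61-fold (adjusted p = 1.04e-05) and the cystine transporter SLC7A11 2.56-fold (adjusted p = 1.58e-05). HMOX1, a target of the same factors, was at −0.08 in this comparison. With arrays centred on their medians 4 of the 14 rose and none fell. This list too was chosen with earlier results of these data known, and its excess over all genes was not tested. With DOX 9 rose and none fell, against 13.6% and 12.2% of all genes, with a median of 0.51, PGD by 1.00 (adjusted p = 3.28e-08) and TALDO1 by 0.76 (adjusted p = 9.28e-07).

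Against the NLRP4 line, some of the leading genes of these lists differed as follows in the uninduced NOD1 line. ALAS1 was 2.02-fold higher (adjusted p = 5.10e-07), PGD 2.09-fold higher (adjusted p = 1.24e-08) and SLC39A8 1.66-fold lower (adjusted p = 5.40e-06). These values share the NOD1-line arrays with those against the vector line. HFE, EPAS1 and ABCB10, called against the vector line without DOX, were not called here. Of the uptake list 1 gene was higher (STEAP3) and 1 lower, and of the sensing list 2 and 3. The haem list had 5 higher and 0 lower, and the iron-sulfur list 9 and 1. The other IRE transcripts had 0 and 2, and the NRF2 and BACH1 targets 12 and 0. Over all genes 14.1% were higher and 12.8% lower. In the comparisons of the NLRP4 line with the vector line, and in those of DOX with no DOX and of the DOX effects between lines, no gene of the 6 lists was called.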

How the data were processed

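Total RNA of 24 THP-1 wells was measured on Affymetrix Human Gene ST arrays, 4 per group. The authors deposited a table of log2 signals by probe set. RMA and oligo are named in the submitters' processing notes, with versions, order of steps and array build not given in the sources used here. Of 33297 probe sets, 19460 had 1 symbol in the platform annotation, 1754 had several and 12083 none; 19429 matched RefSeq (GRCh38.p14) by Entrez ID. The brightest single-symbol probe set stood for each of 18417 genes (769 had more than 1, each measured member only 1). Because the deposited array medians differed, gene values were quantile normalized, which removes any shift shared by all genes. Using R 4.3.3 and limma 3.58.1, 6 group means were fitted over 24 arrays (18 residual degrees of freedom) with eBayes and Benjamini-Hochberg adjustment over all genes for 13 comparisons. Alternatives changed the scaling, the arrays in the fit, array weights, a covariate, the variance prior, a filter on dim genes and the probe set rule, and left out each array. Precision is limited by having 4 arrays a group, and no background was estimated here, so folds of dim genes may be understated. The members and gene lists were chosen with earlier results of these data known. All members are named; from each list up to 4 called genes with the lowest p were named for the uninduced NOD1 and vector lines and up to 2 for other comparisons, with others marked.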

Additional observations from a re-analysis of the deposited data

Results flagged for a closer look

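HMOX1 in replicate 4 of the DOX-treated NLRP4 line stood apart from the other arrays of its group, at 8.66 on the log2 scale against 8.51 to 8.53, a gap of 0.855 of the group's range, past Dixon's critical value for 4 samples. It was the single such array in 48 groups of 4 checked (8 genes by 6 groups), where chance marks about 1 in 20.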

How the results depend on the processing

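Each comparison was refitted under 33 alternatives (32 for DOX averaged over the lines). FTL kept its call in all 33 in each of the 4 comparisons of the NOD1 line with another line, with 0.63 to 0.80 for the uninduced NOD1 and vector lines, and TFRC did so in both uninduced comparisons. With arrays centred on their medians, 1 member instead of 2 was called between the DOX-treated NOD1 and vector lines, and NCOA4 turned from −0.16 to 0.05 between the DOX-treated NOD1 and NLRP4 lines (adjusted p = 0.850). The cause was not tested. Of 104 pairs of gene and comparison, 10 were called, 14 were called in the reported fit or some alternative, and of the 90 never called 48 turned sign under at least 1 alternative. Without quantile normalization the median gene moved to 0.26 for DOX in the NLRP4 line, −0.21 and 0.12 for the NOD1 against the NLRP4 line with and without DOX, and 0.12 for the DOX-treated NLRP4 against the vector line. The fit without the 4 arrays with the lowest deposited median was chosen after seeing the data. The list counts were refitted under 31 alternatives. No paired analysis was possible because the labels give the arrays of different groups no shared replicate numbers.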
